A study of Mus musculus with 6 samples.

Results

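The type I interferon-stimulated genes described here are 32 antiviral genes chosen by symbol, without the IRF, STAT and guanylate-binding protein genes. All 32 were found among the 55487 genes of the count tables, and all 32 passed the filter on low counts, as did 14140 genes in all. They were read in 6 libraries of tumour-associated macrophages from C57BL/6 mice that carried Lewis lung carcinoma, a transplantable mouse lung cancer line, under the skin of the flank. The tumours were taken between day 15 and day 17, and all cells were sorted as positive for CD11b and F4/80 and negative for Ly6C and Ly-6G. The sort then parted them by surface MHC class II into MHC-II high and MHC-II low by label, with 3 libraries of each numbered as replicates 1 to 3, and with that number also given as the batch. No treatment or genotype set the groups apart, and nothing in the labels ties a replicate to its own mouse. The p-values therefore measure only how these libraries spread, a spread that may be technical. Age, sex and any pooling of tumours are not given in the sources used.

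Transcripts of MHC class II went against the labels, so the groups are named by label throughout. H2-Aa, which encodes a class II chain, had 4.397, 5.48 and 6.69 CPM (counts per 1000000 reads) under the high label, and 1377, 1166 and 1506 CPM under the low one. A negative log2 fold change below means a lower level in the libraries labelled MHC-II high, which are the libraries with few class II transcripts.

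Type I interferons are cytokines that almost every cell can make on sensing viral or displaced nucleic acid. They bind the receptor pair IFNAR1 and IFNAR2, whose kinases JAK1 and TYK2 activate transcription factors that bind interferon-stimulated response elements in the promoters of their target genes. The products cut or trap viral RNA, block entry and release of particles, and sense more nucleic acid. In tumours, macrophages with a strong interferon signature are a recurrent state beside those rich in MHC class II, which answers mainly to interferon gamma and its activator CIITA.

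Promoters of 12 of these genes held the letters of the element's core. RefSeq promoter windows on GRCm38.p6, from 250 bases before to 50 bases after the start site, were at hand for 22 of the 32 genes. The core of the response element, spelled GAAA, any 2 bases and GAAA, was searched on both strands and found in 12 of the 22 (54.5%), against 3.99% of 27025 genes with a window, and the count says only that these letters are there. In 8 of the 12 a core lay wholly before the start, with its first base between 156 and 14 bases upstream, and in the other 4, Ddx58, Ifih1, Ifitm3 and Eif2ak2, it lay after the start. The core of the gamma-activated site, spelled TTC, any 3 bases and GAA, which reads the same on both strands, was in 7 of the 22 (31.8%), against 9.55% of genes. Ifitm3, Bst2, Oas1a and Eif2ak2 held both, and in Bst2 and Ifitm3 the matches overlapped. The stretches below come from the 6 genes with the highest level per kilobase among those with a core before the start. They are shown because the core is the feature these genes share beyond their names, each on the strand of its gene, 5′ to 3′, with the cores in capitals.
Bst2, chr8:71537572-71537617, minus strand: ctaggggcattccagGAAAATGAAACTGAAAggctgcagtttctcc
Trim30a, chr7:104465205-104465244, minus strand: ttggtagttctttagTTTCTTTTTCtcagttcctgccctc
Oas1a, chr5:120907526-120907560, minus strand: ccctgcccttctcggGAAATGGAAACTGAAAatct
Rsad2, chr12:26456548-26456587, minus strand: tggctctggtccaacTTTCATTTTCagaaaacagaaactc
Ifit3, chr19:34583358-34583431, plus strand: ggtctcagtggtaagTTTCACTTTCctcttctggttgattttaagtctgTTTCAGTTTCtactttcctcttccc
Ifit1, chr19:34640770-34640828, plus strand: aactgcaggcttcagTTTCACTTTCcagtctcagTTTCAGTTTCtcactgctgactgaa
In Bst2 and Oas1a the cores ran into each other in tandem, so that their capitals form 1 block, while Ifit1 and Ifit3 held 2 separate cores on the opposite strand. Rsad2 and Trim30a held 1 each, also on the opposite strand.

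**Figure D1:**
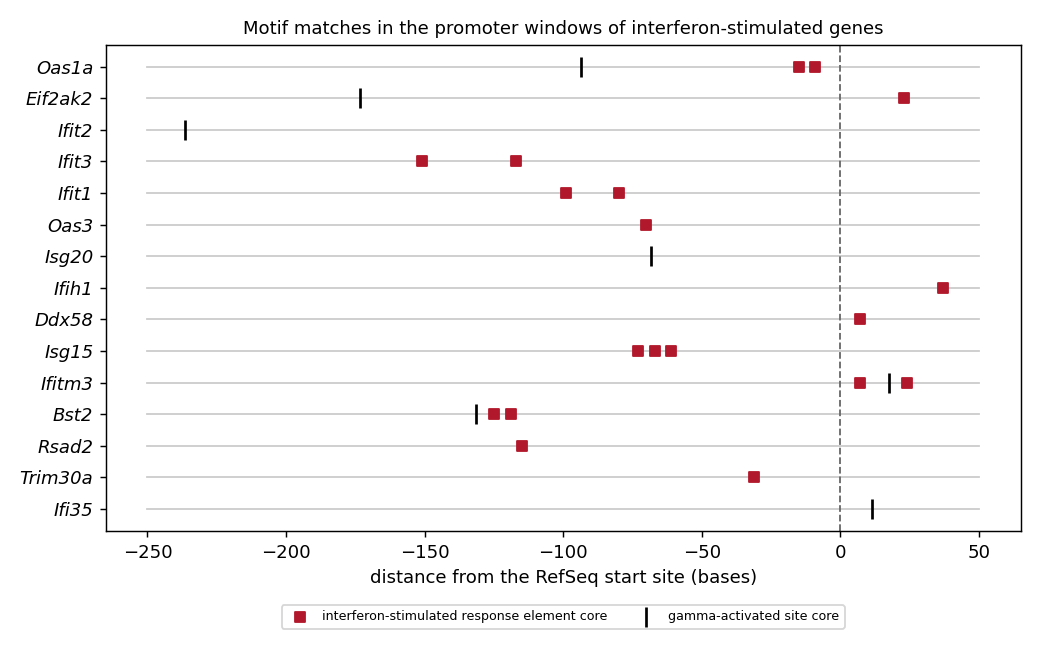
Distance from the RefSeq start site (horizontal axis, bases) of each match to the interferon-stimulated response element core (red squares) and the gamma-activated site core (black ticks) in the promoter windows of the genes that hold either, with grey lines for the windows of 300 bases. Most red squares lie within 156 bases before the start, and those of Ifih1, Ddx58, Ifitm3 and Eif2ak2 lie after it. For Trim30a 1 of 2 windows is drawn.

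Reads in genes ranged from 10202879 to 25473051 per library, and those in the 32 genes from 4686 to 19856. The library with the fewest in both was labelled low replicate 3, where 1 rRNA copy took 47.3% of the reads in genes, against 3.85% to 13.5% in the other 5. CPM are counts divided by library sizes scaled with TMM factors (trimmed mean of M values). The fold changes come from the edgeR quasi-likelihood test over all 14140 genes, and genes with a Benjamini-Hochberg adjusted p under 0.05 are called.

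None of the 32 interferon-stimulated genes passed the test between the labels. edgeR called 0 of 32, where it called 0.446% of all genes tested (0.354% lower and 0.0919% higher under the high label), and the adjusted p values of the 32 ran from 0.307 to 0.997. DESeq2, which called 2.81% of all genes (1.96% lower and 0.856% higher), and limma-voom also called 0 of the 32. At an unadjusted p under 0.05 stood 6 of them (18.8%, against 12.1% of all genes): Rtp4, Oas3, Oasl2, Mx1, Zbp1 and Oas2, all on the lower side under the high label. Log2 fold changes ranged from -1.003 to 0.27 with a median of -0.26, against -0.02 over all genes tested, and 23 of the 32 (71.9%) lay below 0, as did 51.5% of all genes. Scaled by total counts, which moved the median of all genes to 0.25, 16 of the 32 lay below 0. For 16 genes the 95% interval of the log2 fold change lay wholly between -1 and 1, that is, within a 2-fold change either way. For 15 others it reached below -1, to -2.02 at the lowest, and for Isg15 it reached 1.06. A missed threshold does not show that the levels were alike. None of the 32 intervals reached a difference of the size of H2-Aa, with a log2 fold change of -7.93 (adjusted p 2.594e-05 by edgeR). H2-Aa belongs to the class of genes whose surface products the sort measured. Oasl1, Usp18, Ifi47, Dhx58, Ifi35 and Eif2ak2 share exon bases with a gene on the opposite strand. Rtp4, Herc6, Parp14 and again Ifi47 share them with a gene on the same strand. Since the strand setting of the counting is not given, reads of antisense partners cannot be told apart. Over the 6 libraries the antisense partners that were counted had at most 24 reads, and the same-strand partners at most 188. In bulk samples like these, fewer cells with a signature and less RNA per cell cannot be told apart.

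**Figure D2:**
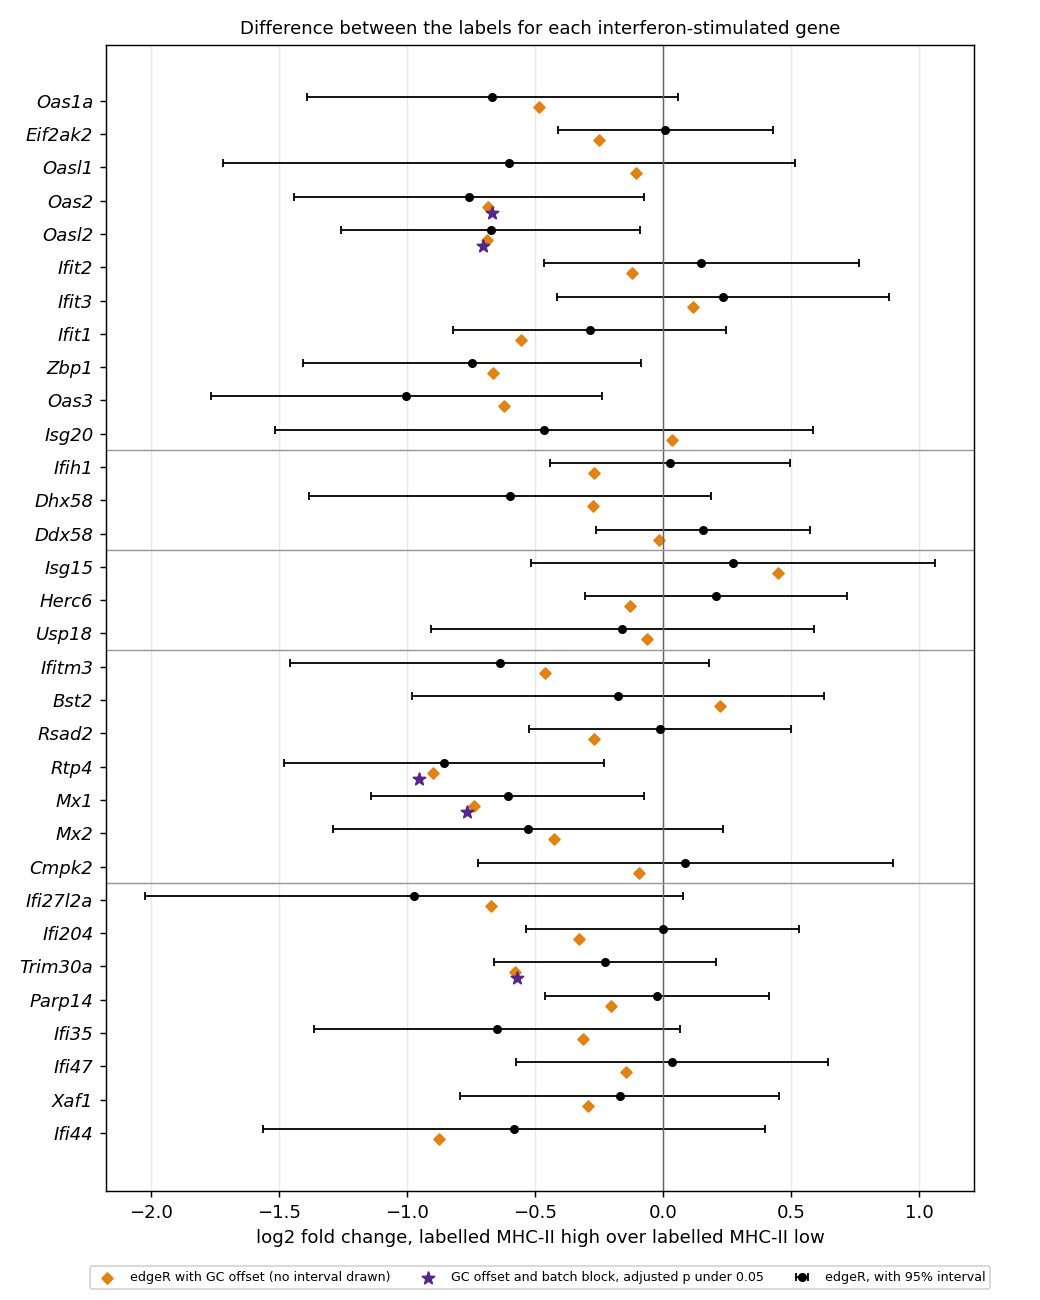
Log2 fold change of each of the 32 genes between labels, high against low (horizontal axis), by edgeR with its 95% interval (black) and with a GC offset (orange diamonds), in 5 groups by role parted by grey lines. Purple stars mark the 5 genes past the threshold when the batch block was added to the GC offset. Black points run from -1.003 for Oas3 to 0.27 for Isg15, and 6 intervals lie wholly below 0.

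The 5 oligoadenylate synthetase genes and relatives had log2 fold changes from -1.003 to -0.60, none past the threshold. The synthetases sense double-stranded RNA and make 2′-5′ oligoadenylate, the signal that switches on the ribonuclease RNase L. Oas1a, Oas2 and Oas3 lie together on chromosome 5 between 120730333 and 120907521 (GRCm38), and Oasl1 and Oasl2 between 114896936 and 114937915. Oas3, the largest of the family, stood at 7.402, 5.88 and 7.51 CPM in the libraries labelled high, for replicates 1, 2 and 3, and at 14.1, 8.22 and 19.99 CPM in those labelled low. All 3 labelled high libraries lay below all 3 labelled low, and the log2 fold change was -1.003 (standard error 0.33, edgeR adjusted p 0.329). Oas2 stood at 22.1, 15.3 and 22.9 CPM with the high label and 39.5, 21.1 and 41.8 CPM with the low one, and Oasl2 at 22.6, 20.98 and 32.9 against 45.3, 30.5 and 46.6 CPM. In both, labelled low replicate 2 fell among the labelled high libraries while replicates 1 and 3 stood well above them. Their log2 fold changes were -0.76 and -0.67, with edgeR adjusted p values of 0.393 and 0.384. Oas1a showed the same order, at 12.5, 9.53 and 14.4 CPM with the high label and 23.7, 11.5 and 23.2 CPM under the low. Oasl1, which lacks synthetase activity and restrains translation of Irf7, varied most, at 15.2, 9.94 and 13.2 CPM against 27.6, 6.296 and 24.8 CPM, with labelled low replicate 2 the lowest of all 6 libraries and replicates 1 and 3 the highest. Its 95% interval, -1.72 to 0.51, was the widest of the list.

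The IFIT genes, a family known for binding viral RNA that lacks the methyl marks of host caps, lie together on chromosome 19 between 34550694 and 34650009. Ifit1 stood at 7.29, 7.49 and 10.3 CPM in the libraries labelled high and 9.96, 11.1 and 9.46 CPM in those labelled low, with a log2 fold change of -0.29. Ifit2 stood at 17.8, 18.04 and 25.4 against 16.7, 24.4 and 13.7 CPM and Ifit3 at 6.51, 5.17 and 8.76 against 6.87, 5.56 and 4.82 CPM, with log2 fold changes of 0.15 and 0.23. The labels overlapped in all 3, and in Ifit2 and Ifit3 the highest labelled high library and the lowest labelled low library both belonged to batch 3. Near-identical neighbours such as Ifit3b could share reads with Ifit3, so that its level is uncertain.

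Among the other RNA effectors, Zbp1 (chromosome 2, 173206612 to 173218923), a sensor of Z-form nucleic acid that can start cell death, stood at 7.12, 6.15 and 5.08 CPM with the high label and 13.00, 7.16 and 10.7 CPM with the low one. The labels did not overlap, though replicates differed by little at the border (7.12 against 7.16 CPM), and the log2 fold change was -0.75 (standard error 0.29, adjusted p 0.386 by edgeR). Eif2ak2, which encodes the kinase PKR that halts translation on binding double-stranded RNA, was even across the libraries at 31.6, 36.8 and 39.3 CPM and 37.1, 38.3 and 31.4 CPM. Its interval of -0.41 to 0.43 on the log2 scale was among the narrowest. Isg20, a small RNA exonuclease, had only 26 to 47 reads in a library and stood at 2.23, 2.09 and 1.43 against 2.398, 1.43 and 4.64 CPM.

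The cytosolic RNA sensors gave a mixed picture. Ddx58 encodes RIG-I and Ifih1 encodes MDA5, which signal through MAVS on viral RNA, while Dhx58 encodes LGP2, their relative without a signalling domain. Ddx58 stood at 28.8, 30.6 and 32.2 CPM with the high label and 29.4, 23.6 and 29.6 CPM with the low one, with a log2 fold change of 0.15 and an interval of -0.26 to 0.57. Ifih1 stood at 34.9, 31.6 and 41.8 against 42.04, 34.01 and 29.98 CPM, with the labels overlapping throughout (log2 fold change 0.03). Dhx58 had 12.5, 9.62 and 10.6 CPM in the labelled high libraries, and in the labelled low ones 19.9 and 21.4 CPM in replicates 1 and 3 but 8.67 CPM in replicate 2, the lowest of the 6. Its log2 fold change was -0.60, with an adjusted p of 0.471 by edgeR. Per kilobase of exon the levels of the 3 sensors were close, at 4.12 to 4.38 CPM per kilobase.

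The ISG15 system attaches a ubiquitin-like protein to other proteins. Isg15 is the modifier, Herc6 the mouse ligase and Usp18 the protease that removes ISG15 and also brakes the interferon receptor. Isg15 was the gene with the highest log2 fold change of the list, 0.27 (standard error 0.34), at 3.28, 2.05 and 2.72 CPM with the high label and 2.88, 1.64 and 2.14 CPM under the low. It stood higher under the high label within each of the 3 batches, the only gene of the 32 to do so, on 12 to 76 reads per library. Herc6 stood at 12.6, 13.4 and 16.02 against 13.5, 13.1 and 9.64 CPM and Usp18 at 3.005, 3.12 and 4.72 against 4.53, 2.86 and 4.997 CPM. In each of the 3 the labels overlapped, with edgeR adjusted p values of 0.688 for Isg15, 0.642 for Herc6 and 0.809 for Usp18.

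Among factors that act at membranes, on entry or on release, the labels did not overlap for Rtp4 and Mx1, though neither passed the test between the labels. Rtp4, a zinc finger protein first known as a receptor transporter, lies on chromosome 16, 23520291 to 23614222, and had 6.12, 4.63 and 8.402 CPM in the libraries labelled high and 12.2, 10.3 and 12.5 CPM in those labelled low, without overlap. Its log2 fold change was -0.86 (standard error 0.27), and its adjusted p of 0.307 by edgeR was the lowest of the list. Mx1 (with Mx2 on chromosome 16 between 97447035 and 97560900), a dynamin-like GTPase whose allele is inactive in most inbred mouse strains, C57BL/6 included, had 6.46, 6.42 and 9.12 CPM against 11.4, 10.8 and 11.4 CPM, again without overlap (log2 fold change -0.61, adjusted p 0.386 by edgeR). Mx2, its neighbour on chromosome 16 and annotated as a polymorphic pseudogene, stood at 2.67, 2.72 and 4.54 against 5.38, 3.52 and 5.71 CPM. Labelled high replicate 3 reached into the labelled low range there. Besides Mx1 and Rtp4, Oas3 and Zbp1 were the other genes with no overlap, making 4 of 32 (12.5%) on the lower side under the high label, where 9.48% of all genes tested had none. On the higher side it was 0 of 32, against 10.5% of all genes.

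Ifitm3 (chromosome 7, 141009586 to 141010770), which keeps viruses from fusing with endosomal membranes, was the most abundant gene of the list at 160 CPM per kilobase of exon over the 6 libraries. Its CPM were 99.8, 76.6 and 78.4 with the high label and 142, 64.5 and 192 with the low one, where replicate 3 stood at nearly 3 times replicate 2. Bst2, or tetherin, holds budding particles on the cell surface and had 16.03, 9.49 and 11.8 CPM against 16.1, 7.89 and 18.6 CPM. Rsad2, or viperin, and Cmpk2, a mitochondrial nucleotide kinase, are neighbours on chromosome 12 that point away from each other, 12751 bases apart. Viperin turns a cytidine nucleotide into a chain terminator of viral RNA synthesis. Rsad2 stood at 20.7, 22.9 and 32.4 against 27.2, 26.4 and 23.02 CPM and Cmpk2 at 4.79, 3.52 and 6.01 against 5.81, 4.78 and 2.498 CPM, and in both labelled high replicate 3 was the highest of the 6 libraries. Their log2 fold changes were -0.01 and 0.09.

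The other 8 induced genes gave log2 fold changes from -0.97 to 0.03, 7 of them below 0. Ifi27l2a, a small mitochondrial membrane protein, also varied widely, with 13.1, 6.59 and 11.9 CPM with the high label and 19.02, 9.65 and 34.4 CPM with the low one, and an interval of -2.02 to 0.08. Ifi35, which forms complexes with NMI, stood at 12.5, 9.58 and 10.7 against 18.97, 10.1 and 22.8 CPM, and the lowest of the labelled low libraries was again replicate 2. Ifi204, a DNA sensor of the cluster on chromosome 1, stood at 54.98, 66.1 and 78.2 against 72.7, 77.96 and 48.4 CPM. Its log2 fold change was -0.0023 with an interval of -0.54 to 0.53. Within batches 1, 2 and 3 its log2 ratio of high over low was -0.40, -0.24 and 0.69. Parp14, an ADP-ribosyltransferase, stood at 77.97, 67.9 and 86.3 against 92.9, 75.1 and 67.8 CPM and also overlapped throughout. Trim30a (chromosome 7, 104409025 to 104465193), a ubiquitin ligase with close relatives beside it, had 49.5, 48.6 and 64.7 CPM with the high label and 67.1, 67.6 and 55.9 CPM under the low. Ifi47, an interferon-inducible GTPase, and Xaf1, a partner of the apoptosis inhibitor XIAP, had log2 fold changes of 0.03 and -0.17. Ifi44 was the scarcest gene, with 6 to 49 reads per library, and had a log2 fold change of -0.58 (standard error 0.43).

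**Figure D3:**
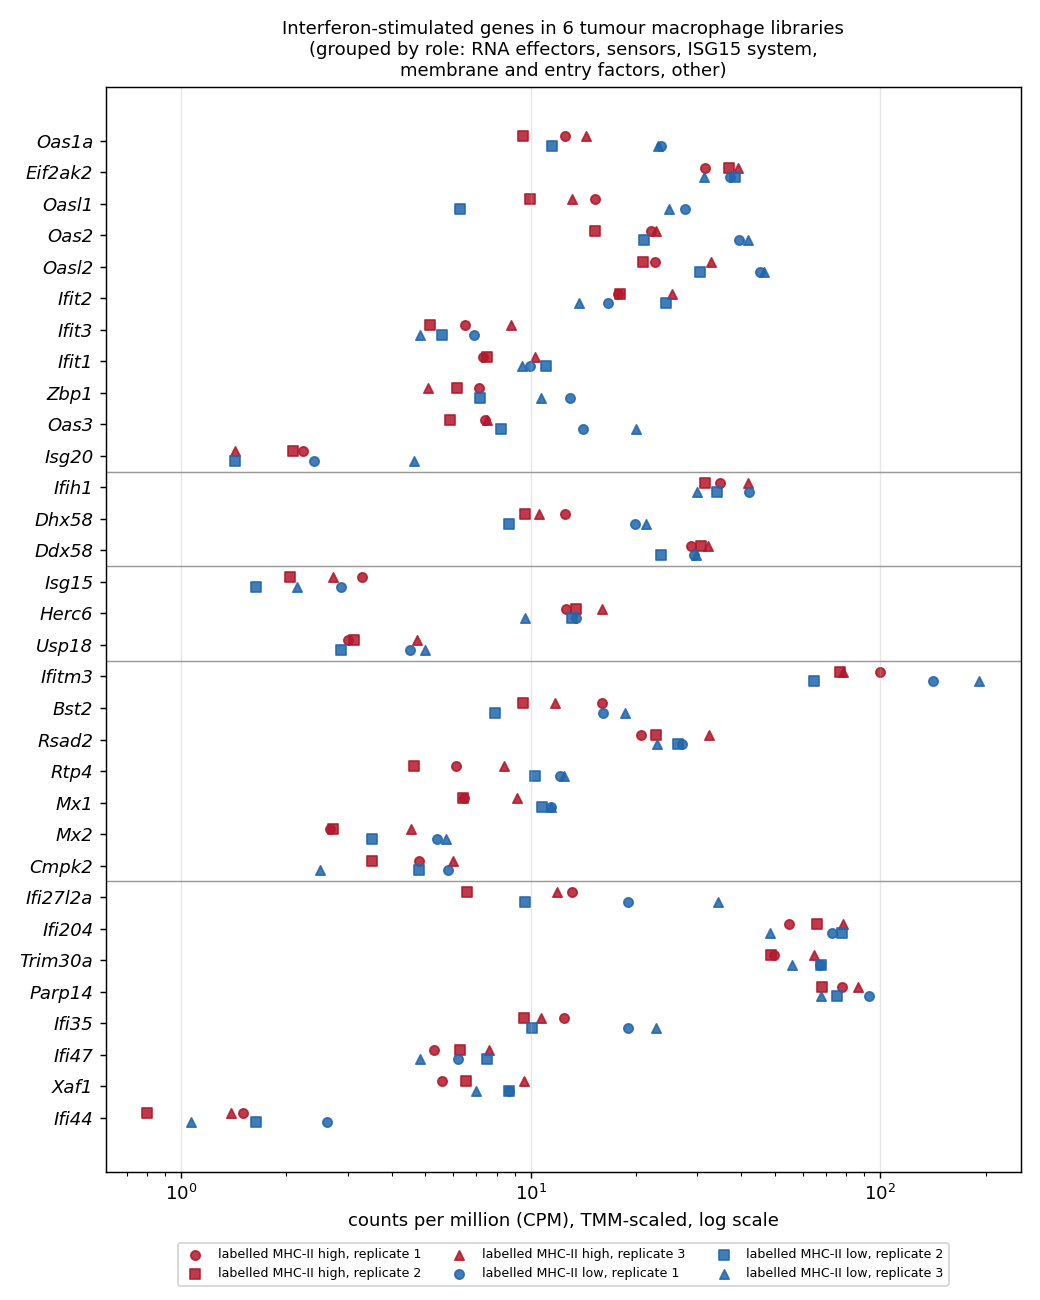
CPM of each of the 32 genes in each library on a log scale (horizontal axis), with libraries labelled MHC-II high in red and low in blue, circles, squares and triangles for replicates 1, 2 and 3, and genes grouped by role. Blue circles and triangles often lie right of all red points while blue squares lie among them, as for Oas1a, or left of them, as for Dhx58. Mx1, Rtp4, Oas3 and Zbp1 have no overlap of colours.

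Libraries of 1 label differed in the level of the whole list. Relative to each gene's own mean over the 6 libraries, the 32 genes had a median log2 CPM of 0.31 in labelled low replicate 1, where 30 of 32 lay above their mean, and of -0.09 in labelled low replicate 2 and 0.20 in replicate 3. In the libraries labelled high these medians were -0.11, -0.30 and 0.15 for replicates 1 to 3. Labelled high replicate 3 therefore stood above labelled low replicate 2, against the direction of the other comparisons. Over all genes tested the same medians stayed between -0.02 and 0.03. Within batch 1 the 32 genes had a median log2 ratio of high over low of -0.48, with 30 of 32 below 0. Within batch 2 the median was -0.23 with 23 below 0, and within batch 3 it was 0.02 with 16 below 0. In all 3 batches 10 genes stood lower under the high label, 1 (Isg15) stood higher and 21 were mixed. Shares of all genes tested were 19.3% lower and 20.8% higher in every batch. The 3 batches, compared with the label kept in the fit, differed in 0 of the 32 genes by edgeR, as in 0.0% of all genes, and 2 of the 32 (6.25%) were under an unadjusted p of 0.05, against 3.20% of all genes. After the GC offset it was 0 of the 32 and 0.573% of all genes, with 10 of the 32 (31.2%) under an unadjusted p of 0.05, against 9.66% of all genes. DESeq2 called 0 of the 32 and limma-voom 0 in that comparison.

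**Figure D4:**
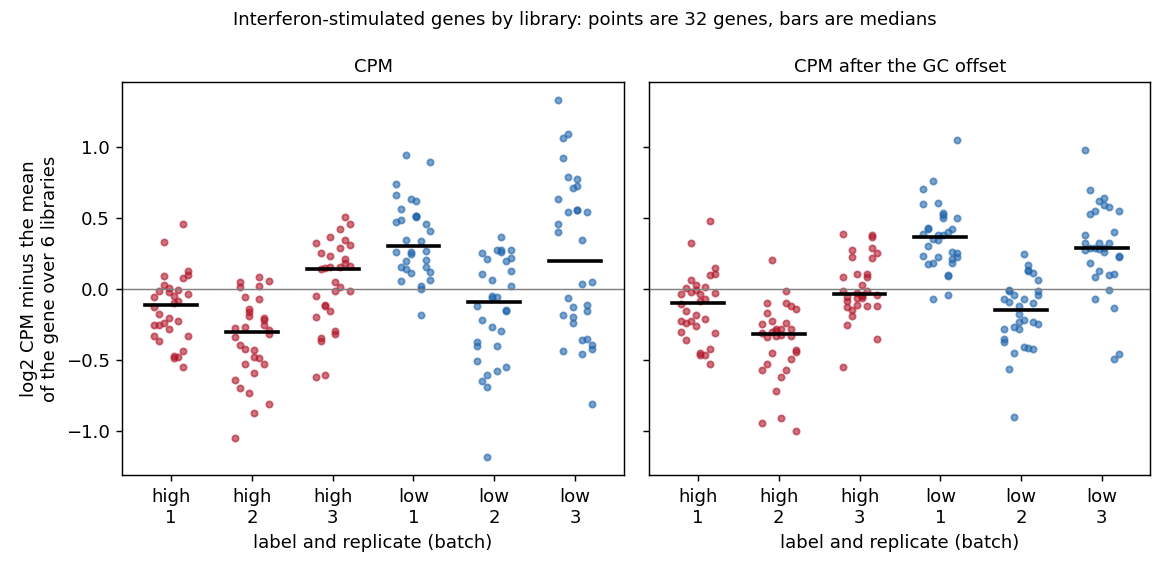
Log2 CPM of the 32 genes minus each gene's mean over the 6 libraries (vertical axis), by label and replicate, from CPM (left) and after the GC offset (right), with points for genes and bars for medians. On the left labelled low replicate 3 spreads widest, and on the right labelled low replicates 1 and 3 have medians of 0.37 and 0.29 while the other 4 libraries lie below 0.

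GC content moved with these differences. It was taken from the longest transcript of each gene and ran from 39.4% in Herc6 to 57.4% in Isg20, with a median of 48.2% over the 32 genes and 48.7% over all genes tested. In labelled low replicate 3 the GC-rich genes stood high and the GC-poor ones low. The log2 ratio of that library to the mean of labelled low replicates 1 and 2 ran from -1.08 for Cmpk2 to 1.28 for Isg20, and its Spearman correlation with GC content was 0.87 over the 32 genes, which share the same libraries and are not independent. Over the 32 genes GC content and log2 fold change had a Spearman correlation of -0.52, and over the 14123 genes with a GC value one of -0.58. A GC offset, which removes from the fit a loess trend over GC content in each library, brought the correlation over the 32 genes to 0.11. The same library held the largest rRNA share, 47.3%, and the part of either in the differences between labels was not tested.

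**Figure D5:**
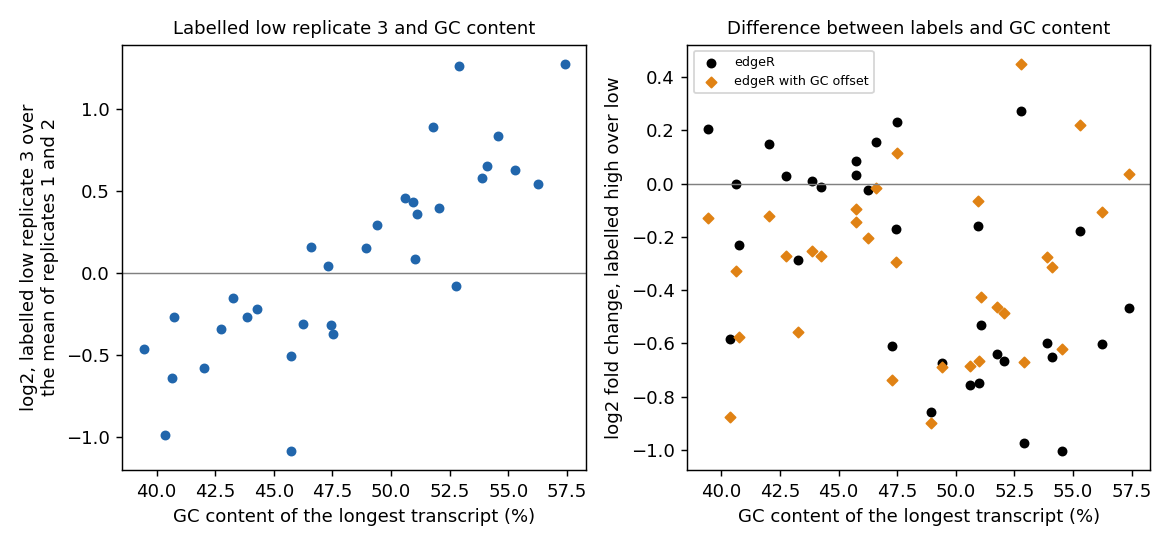
GC content of the longest transcript (horizontal axes, percent) for the 32 genes against the log2 ratio of labelled low replicate 3 to the other labelled low libraries (left), and against the log2 fold change between labels (right) by edgeR (black) and with the GC offset (orange). On the left values climb with GC content, from -1.08 for Cmpk2 up to 1.28 for Isg20 at 57.4%.

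The GC offset left more of the 32 genes on the lower side. Their median log2 fold change was -0.28 and 28 of 32 lay below 0, but edgeR still called 0 of 32, with a lowest adjusted p of 0.0933 for Mx1, where it called 2.54% of all genes, 1.68% as lower. Among GC-rich genes Oasl1 went from -0.60 to -0.11, Isg20 from -0.47 to 0.04 and Bst2 from -0.18 to 0.22, while GC-poor Ifih1 went from 0.03 to -0.27. Within batches the medians after the offset were -0.51, -0.20 and -0.32, against -0.01, 0.01 and -0.09 over all genes tested, and 18 of the 32 genes stood lower under the high label in all 3 batches, against 23.2% of all genes. Labelled low replicates 1 and 3 then held the highest level of 13 genes each. Labelled high replicate 2 held the lowest level of 16.

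Adding the batch as a block to the GC offset ended the count of 0. In that fit 5 of the 32 genes (15.6%) were lower under the high label and 0 were higher, where 2.63% of all genes were called lower and 1.14% higher, 3.77% in all. Rtp4 fell by 0.95 on the log2 scale (standard error 0.16, adjusted p 0.0256 by edgeR), Mx1 by 0.77 (adjusted p 0.0365) and Oasl2 by 0.70 (0.0322). Oas2 fell by 0.67 (0.0301) and Trim30a by 0.57 (0.0334). The block without the GC offset called 0 of the 32 and 0.29% of all genes, with a lowest adjusted p of 0.381. Leaving out labelled low replicate 2 also ended the count of 0: edgeR then called 8 of the 32 (25.0%) lower, Oas1a, Oas2, Oas3, Oasl1, Dhx58, Ifi35, Ifi27l2a and Ifitm3, and 0 higher, where it called 5.45% of all genes lower and 1.71% higher. The 2 remaining labelled low libraries are the pair with the largest rRNA shares, 13.5% and 47.3%. When that library was left out of the fit with the GC offset, 4 were called lower, Oas2, Oasl2, Trim30a and Ifitm3, against 4.26% of all genes. Without labelled low replicate 3, edgeR called 0 of the 32, and their lowest adjusted p was 0.414. Over all genes that fit called 55 lower and 15 higher.

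The ligands of the pathway were close to absent. Of 21 interferon genes of types I, II and III in the tables, 15 had 0 reads in all 6 libraries, and none could be tested. Ifnb1, interferon beta, had 21 reads over the 3 labelled high libraries and 20 over the 3 labelled low, and all 21 genes together had 24 reads under each label. Ifng, interferon gamma, had 0 reads, which allows up to 3 reads per library, or 0.107 to 0.535 CPM by library.

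Interferon receptors and their signalling proteins had 0 of 12 tested genes called by edgeR, with 1 at an unadjusted p under 0.05 (12.1% of all genes were). DESeq2 called 1 lower, where it called 1.96% of all genes lower. That gene was Ifnlr1, a chain of the interferon lambda receptor, with 0.167, 0.0891 and 0.143 CPM where the label was high and 1.01, 1.02 and 1.25 CPM where it was low. Its edgeR adjusted p was 0.05003, and 0.0192 with the GC offset. Leaving out labelled low replicate 2 gave 2 lower, Ifnlr1 and Tyk2, a kinase of the receptor, where 5.45% of all genes were lower. Ifnlr1 rested on 2 to 4 reads per labelled high library and 7 to 25 per labelled low one. Stat2 and Irf9, which encode factors that bind the response element, stood at 25.4 ± 2.3 and 28.3 ± 3.4 CPM with the high label and 35.3 ± 9.5 and 35.8 ± 4.4 CPM with the low one (SD, n = 3 each). Neither passed, at edgeR adjusted p values of 0.444 and 0.470. The median log2 fold change of the 12 was -0.08.

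Nucleic acid sensing upstream of interferon had 0 of 18 tested genes called by edgeR, with 8 at an unadjusted p under 0.05 (12.1% of all genes were). Their median log2 fold change was -0.52, with 13 below 0. DESeq2 called 1 lower, where it called 1.96% of all genes lower. Tlr9, the endosomal sensor of unmethylated DNA, had 12.2, 9.09 and 9.76 CPM with the high label and 39.9, 17.1 and 88.0 CPM with the low one, without overlap. Its edgeR adjusted p was 0.161, and 0.0305 with the GC offset. Tmem173, which encodes STING, and Mavs, the adaptor of RIG-I and MDA5, stood at 21.5 ± 0.64 and 28.4 ± 2.9 CPM against 40.4 ± 12 and 46.1 ± 15 CPM. Tlr7, a sensor of single-stranded RNA, stood the other way, at 148 ± 21 against 93.0 ± 30 CPM (adjusted p 0.387 by edgeR). After the offset the median of this list was -0.26. The count of 0 moved with the setting. Without labelled low replicate 2 edgeR called 7 lower and 1 higher, where it called 5.45% of all genes lower and 1.71% higher. The GC offset alone gave 1 lower, Tlr9, where 1.68% of all genes were lower. The GC offset with the batch block gave 2 lower, Tlr9 and Tmem173, where 2.63% of all genes were lower. Of 10 tested brakes on interferon signalling edgeR called 0, with 3 at an unadjusted p under 0.05, and DESeq2 called 0. Without labelled low replicate 2 there were 4 lower, Cish, Ptpn1, Socs1 and Socs3, where 5.45% of all genes were lower. With the GC offset and without that replicate 1 was lower, against 4.26% of all genes. The median log2 fold change of the brakes was -0.52, and -0.16 after the GC offset. Socs1, which blocks JAK kinases, had 0.652 ± 0.20 CPM with the high label and 2.26 ± 1.3 CPM with the low one (SD, n = 3).

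Of 75 further interferon-stimulated genes that were tested, 1 was lower and 0 were higher by edgeR (0.354% and 0.0919% of all genes). DESeq2 called 4 lower and 1 higher, where it called 1.96% and 0.856% of all genes. Their median log2 fold change of -0.29 lay beside the -0.26 of the 32 genes, and 52 of the 75 were below 0. The lower gene was Ifitm1, a neighbour of Ifitm3 that acts at the cell surface. It had 5.73, 6.50 and 5.22 CPM where the label was high, and 24.5, 27.1 and 66.4 CPM where it was low (log2 fold change -2.74, standard error 0.40, edgeR adjusted p 0.0387). Leaving out labelled high replicate 1, 2 or 3 or labelled low replicate 1 left 0 calls on this list. Over all genes tested these fits called only 9, 8, 14 and 14 lower and 0 higher. The batch block also left 0 calls (edgeR adjusted p of Ifitm1 0.0543), with 40 lower and 1 higher over all genes. Without labelled low replicate 2 there were 13 lower and 1 higher (5.45% and 1.71% of all genes). The GC offset gave 5 lower, where 1.68% of all genes were: Ifitm1, Cd69, Lgals3bp, Ms4a4c and Trim30d, the last a relative of Trim30a, and Trim30d is named here after its call was seen. Ccl12, a monocyte chemokine, stood the other way at 23.1, 30.1 and 46.9 CPM with the high label against 13.8, 17.8 and 13.7 CPM (edgeR adjusted p 0.194). It was the gene that DESeq2 called higher. The GC offset with the batch block also called it higher (adjusted p 0.0186 by edgeR), beside 8 lower. In that fit 1.14% of all genes were higher and 2.63% lower.

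Genes known as targets of interferon gamma included Ciita, which had the largest difference of the genes named here after H2-Aa. Of 19 tested, edgeR called 2 lower, Ciita and Gbp8, where it called 0.354% of all genes lower. The median log2 fold change over the list was -0.26. Ciita, the activator of MHC class II genes, had 0.501, 1.20 and 1.25 CPM with the high label and 87.2, 53.9 and 119 CPM with the low one (log2 fold change -6.41, adjusted p 0.000731 by edgeR). Gbp8, an interferon-induced GTPase, stood at 0.668, 1.20 and 1.82 CPM against 8.74, 6.13 and 7.85 CPM. With the batch block, and also without labelled low replicate 3, Ciita alone was called, Gbp8 having edgeR adjusted p values of 0.0609 and 0.05001. Over all genes tested these fits called 40 and 55 lower. Leaving out any labelled high replicate or labelled low replicate 1 also left 1 call, where 8 to 14 of all genes were called lower. Other settings gave more, and also called more of all genes. Without labelled low replicate 2, 4 were lower (Ciita, Gbp8, Cxcl9 and Socs1), where 5.45% of all genes were. DESeq2 called 4 lower (Ciita, Gbp8, Cxcl9 and Gbp4), where it called 1.96% of all genes lower. The GC offset with the batch block gave 5 lower, where 2.63% of all genes were. Medians of this list and of the 32 genes were both -0.26, and a difference between the 2 lists was not tested.

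Markers of other cells were read beside these values. The gate for CD11b and F4/80 and against Ly6C and Ly-6G would remove neutrophils, Ly6C-positive monocytes and cells without CD11b, so far as the sort was pure. Summed markers of conventional dendritic cells stood at 56.5 to 99.8 CPM in the libraries labelled high and 288 to 437 CPM in those labelled low. Of 7 tested markers edgeR called 4 lower, where it called 0.354% of all genes lower. Markers of plasmacytoid dendritic cells, the strongest producers of type I interferon, stood at 129 to 149 CPM against 114 to 126 CPM with Bst2 left out, and 0 of 3 tested were called by edgeR. Macrophage markers stood at 9954 to 12150 CPM against 6634 to 12440 CPM, with labelled low replicate 2 the lowest, and 0 of 10 were called. Monocyte markers ran from 3231 to 5036 CPM against 2936 to 6157 CPM, and neutrophil markers from 14.1 to 16.9 CPM against 12.5 to 28.6 CPM with Ly6g and Camp at 0 reads. B cell markers reached 2.23 to 2.90 CPM against 7.28 to 14.8 CPM, and T and NK cell markers 0.536 to 1.17 CPM against 1.96 to 4.21 CPM with Cd3e, Cd3d and Trbc2 at 0 reads. Epithelial markers, which the tumour cells could carry, stood at 15.2 to 22.1 CPM against 41.6 to 43.1 CPM. Of 3 tested, 1 was called lower, against the same 0.354% of all genes. Fibroblast markers ran from 72.6 to 410.7 CPM against 129.9 to 599 CPM, lowest in batch 3 under both labels, endothelial markers from 18.1 to 24.9 CPM against 15.8 to 31.2 CPM, and mast cell, basophil and eosinophil markers from 2.62 to 3.43 CPM against 1.07 to 3.80 CPM with Mcpt8 and Epx at 0 reads. Of 10 housekeeping genes edgeR called 0, with a median log2 fold change of 0.18. The part of these cells in the levels of the interferon-stimulated genes was not tested.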

How the data were processed

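RNA depleted of ribosomal RNA was sequenced from stranded libraries of sorted macrophages, 3 per label. The deposited values are read counts per gene. They were made on GRCm38 with STAR and HTSeq among the tools listed, beside FastQC, Trimmomatic and DESeq2, per the submitters' processing notes, which give no versions; the strand setting is not given in the sources used. Of 55487 genes, 55227 matched GENCODE M21, and rows that name no gene were left out (35.2% to 49.4% of reads had no feature). Counts were tested with edgeR 4.0.16 (TMM, filterByExpr, quasi-likelihood, label only, Benjamini-Hochberg) in R 4.3.3, after a test on simulated data. Alternatives were DESeq2 1.42.0, limma 3.58.1 (voom), other scales and filters, each replicate left out, a GC offset (loess, span 0.4) and a batch block. The labels give replicate numbers as batches. Deviations of same-numbered libraries correlated at 0.159, 0.335 and -0.116. Those of differently numbered libraries correlated at -0.489 to 0.353, the highest for labelled high replicate 1 with labelled low replicate 3. Same-numbered libraries were thus not set apart from the others, and the batch block rests on the labels alone. Promoters come from RefSeq. All 32 genes may be named, and up to 6 per further list, by smallest p at a mean of 1 CPM or more in either label. The members and lists were chosen with earlier results of these data known.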

Additional observations from a re-analysis of the deposited data

How the results depend on the processing

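The count of 0 interferon-stimulated genes called higher held under all 19 alternatives, and the count of 0 called lower under 16 of them. The exceptions were the GC offset with the replicate block (5 lower), leaving out labelled low replicate 2 (8 lower) and the GC offset without that replicate (4 lower), the last added after seeing the data, as was the GC offset without labelled low replicate 3. Leaving out 1 replicate gave 0 to 8. The replicate block alone changed no call among the 32. Total counts as the scale shifted the median log2 fold change of all genes tested from -0.021 to 0.252 and that of the 32 genes from -0.26 to -0.0064, so that directions under it are relative to that shift. Over all genes the calls were 13 higher and 50 lower. Higher calls numbered 8 with total counts, 121 with DESeq2, 113 with no filter, 1 with the replicate block, 121 with the GC offset, 161 with the GC offset and block, 0 without batch 3, 109 and 266 with the GC offset and without labelled low replicate 3 or 2, and 0 to 246 when 1 replicate was left out. Lower calls numbered 277 with DESeq2, 436 with no filter, 238 with the GC offset, 372 with the GC offset and block, 28 without batch 3, 206 and 613 with the GC offset and without labelled low replicate 3 or 2, and 8 to 784 when 1 replicate was left out. Genes that differed between batches numbered 0, but 73 by DESeq2, 221 with no filter and 81 with the GC offset. The cause of these shifts was not tested.

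Some log2 fold changes of single genes changed sign, and none of these was called where it did. With total counts as the scale it was 0.24 for Rsad2, 0.15 for Usp18, 0.0653 for Xaf1, 0.20 for Bst2, 0.20 for Ifi204, 0.0192 for Trim30a and 0.23 for Parp14. After the GC offset it was -0.12 for Ifit2, -0.15 for Ifi47, -0.0169 for Ddx58, -0.27 for Ifih1, -0.0949 for Cmpk2, 0.22 for Bst2, -0.13 for Herc6, -0.25 for Eif2ak2 and 0.0357 for Isg20. After the offset and the replicate block it was -0.14 for Ifit2, 0.0039 for Oasl1, -0.16 for Ifi47, -0.26 for Ifih1, -0.12 for Cmpk2, 0.22 for Bst2, -0.12 for Herc6, -0.25 for Eif2ak2 and 0.0419 for Isg20. Without batch 3 it was -0.19 for Ifit2, -0.0871 for Ifit3, -0.24 for Ifi47, -0.19 for Ifih1, -0.35 for Cmpk2, 0.0911 for Bst2, -0.025 for Herc6, -0.14 for Eif2ak2 and 0.19 for Isg20. The offset without labelled low replicate 3 gave a fit in which it was -0.10 for Ifit2, 0.0192 for Usp18, -0.17 for Ifi47, -0.20 for Ifih1, -0.23 for Cmpk2, 0.23 for Bst2, -0.065 for Herc6, -0.17 for Eif2ak2 and 0.18 for Isg20. The offset without labelled low replicate 2 gave a fit in which it was -0.0465 for Ifit2, -0.0858 for Ifi47, -0.18 for Ddx58, -0.43 for Ifih1, -0.15 for Cmpk2, 0.0876 for Bst2, -0.26 for Herc6 and -0.33 for Eif2ak2. With no filter on low counts it was 0.0528 for Rsad2, 0.0542 for Ifi204 and 0.0415 for Parp14. Without rRNA and mitochondrial genes it was 0.0021 for Rsad2 and 0.0114 for Ifi204. With the replicate block alone it was 0.0101 for Ifi204. With limma-voom it was -0.0059 for Eif2ak2. When 1 replicate was left out in turn, the log2 fold changes that changed sign ran from -0.0337 to 0.45 for Ifit2, -0.23 to 0.13 for Rsad2, -0.11 to 0.23 for Ifi47, -0.0875 to 0.19 for Ifih1, -0.42 to 0.0044 for Xaf1, -0.15 to 0.35 for Cmpk2, -0.44 to 0.048 for Bst2, -0.18 to 0.16 for Ifi204, -0.12 to 0.13 for Parp14, -0.0729 to 0.11 for Eif2ak2 and -0.78 to 0.001 for Isg20. Depth limits the scarce genes most: Ifi44 had as few as 6 reads in a library and Isg15 12.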
